A study of Mus musculus with 12 samples.

Results

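Integrins are cell surface receptors made of 1 α and 1 β subunit, and the genes described here encode the subunits that blood leukocytes carry. The set was fixed by name as Itgam, Itgal, Itgax, Itgb2, Itga4, Itgb1, Itgb7, Itga6, Itgae and Itgb3. Of the 34745 gene rows in the deposited table, 11 rows carry 1 of these 10 names, because Itgam names 2 overlapping gene models. RNA came from all the cells of the femoral marrow of male ICR mice, an outbred stock whose age is not given, with 1 library per mouse. Each of the 4 groups had 3 mice. Normal mice were given saline alone. Model mice were injected intraperitoneally with cyclophosphamide, an alkylating drug toxic to dividing cells, at 80 mg/kg/day on days 5 to 7 of 1 week, with saline by mouth as vehicle. The QJSB group received this cyclophosphamide plus the herbal granule Qi-Jing-Sheng-Bai at 3 g/kg/day by mouth for 1 week. The leucogen group received this cyclophosphamide plus leucogen, a drug given to raise leukocyte counts, at 20 mg/kg/day by mouth for 1 week. Both drug groups thus share the cyclophosphamide injections with the model group, and no group received a drug without them.

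An α and a β subunit leave the cell's interior only as a pair, so the subunits at hand set which receptors a cell can display. The β2 subunit (Itgb2, CD18) pairs with αM (Itgam, CD11b) in the complement receptor Mac-1 of neutrophils and monocytes, with αL (Itgal, CD11a) in LFA-1 of nearly all leukocytes, and with αX (Itgax, CD11c) in a receptor of dendritic cells and some macrophages. The α4 subunit (Itga4) pairs with β1 (Itgb1) in VLA-4, which holds blood cell precursors to VCAM1 and fibronectin in the marrow, or with β7 (Itgb7) in the gut homing receptor that binds MAdCAM-1. αE (Itgae, CD103) pairs with β7 and binds E-cadherin, α6 (Itga6) pairs with β1 or β4 and binds laminin, and β3 (Itgb3) pairs with αIIb in platelets and with αv in osteoclasts and other cells.

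Promoter sequences are shown for the genes whose levels moved furthest in these data and for which RefSeq gave one, namely the neighbours Itgam and Itgax and the partners Itga4 and Itgb7. Each is the 250 bases before the annotated start, on the gene's own strand (RefSeq, GRCm38.p6). A promoter was matched for 5 of the 10 members, the fifth being Itgb1. Capitals mark the core letters of motifs read by PU.1, a myeloid transcription factor (GAGGAA or its reverse complement TTCCTC), and by RUNX factors (TGTGGT or ACCACA).
Itgam (chr7:128062390-128062639, plus strand): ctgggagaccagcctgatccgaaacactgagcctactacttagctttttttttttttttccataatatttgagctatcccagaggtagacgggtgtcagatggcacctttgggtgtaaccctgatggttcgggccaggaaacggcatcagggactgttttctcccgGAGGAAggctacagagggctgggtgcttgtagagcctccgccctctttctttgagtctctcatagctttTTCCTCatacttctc
Itgax (chr7:128129300-128129549, plus strand): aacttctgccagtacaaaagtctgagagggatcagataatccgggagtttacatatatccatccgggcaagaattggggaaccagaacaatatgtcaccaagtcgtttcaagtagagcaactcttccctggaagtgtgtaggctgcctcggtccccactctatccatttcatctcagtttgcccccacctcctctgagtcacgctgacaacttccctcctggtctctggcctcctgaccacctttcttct
Itga4 (chr2:79255176-79255425, plus strand): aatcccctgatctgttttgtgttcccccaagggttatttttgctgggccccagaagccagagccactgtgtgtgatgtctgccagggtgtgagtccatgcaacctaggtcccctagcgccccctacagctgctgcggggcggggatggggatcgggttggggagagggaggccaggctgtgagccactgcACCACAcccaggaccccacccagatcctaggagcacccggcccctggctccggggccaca
Itgb7 (chr15:102231936-102232185, minus strand): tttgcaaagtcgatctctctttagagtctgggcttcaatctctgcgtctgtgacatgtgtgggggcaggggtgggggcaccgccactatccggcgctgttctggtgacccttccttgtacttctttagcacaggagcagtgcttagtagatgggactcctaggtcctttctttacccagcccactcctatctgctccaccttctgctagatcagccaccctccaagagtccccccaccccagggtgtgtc
The Itgam window held 2 matches to the PU.1 core, beginning 84 and 15 bases before the start, and none to the RUNX core. The Itga4 window held 1 match to the RUNX core, beginning 60 bases before the start. The windows of Itgax and Itgb7 held neither set of letters. The Itgb1 window, not printed here, held 1 match to the PU.1 core, beginning 9 bases before the start, and none to the RUNX core. Among 32851 promoters of the same length, 23.3% held the PU.1 core and 14.0% the RUNX core, and neither set of letters overlaps the other in the windows shown. A match is a description of letters and was not tested for binding.

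The 3 β2 partner genes among the members lie on chromosome 7 (GRCm38), with Itgal (ENSMUSG00000030830) at chr7:127296260-127335138, Itgam (ENSMUSG00000030786) at chr7:128062640-128118491 and Itgax (ENSMUSG00000030789) at chr7:128129547-128150657. Itgb2 (ENSMUSG00000000290) lies at chr10:77530252-77565708. The second row named Itgam (ENSMUSG00000108596, chr7:128062683-128128160) is called Gm49368 in GENCODE M21, runs past the end of Itgam and stops 1386 bases before Itgax. It shares 3450 of its 4803 exonic bases, or 71.8%, with exons of Itgam. How the authors divided reads between overlapping models is not given, so the level of each of these 2 rows is uncertain, and it is given below both apart and summed. Every member is a protein-coding gene on the plus strand except Itgb7, which lies on the minus strand.

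Library totals ran from 11172547 to 18545198 counts. Levels below are CPM, the counts of a library scaled to a common library total with edgeR's TMM factors over the 12 libraries, with means ± SD of 3 mice. Defining markers of neutrophils, promyelocytes and monocytes were above 0 in every library. The libraries differed in these markers within groups as well as between them. The summed level of 15 late neutrophil genes ran from 26617 to 32337 CPM in normal mice, from 9628 to 29255 in model mice, from 10749 to 48476 in QJSB mice and from 69487 to 82051 in leucogen mice. Model replicate 1 and QJSB replicate 1 were the lowest of their groups and the lowest of all 12 libraries, so values without them are given where a result rests on them. Of 15 B lineage genes, 13 were lower in the model group than in the normal group, as were all 13 erythroid genes tested. In total marrow, fewer cells of a type and less RNA per cell cannot be told apart.

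**Figure D1:**
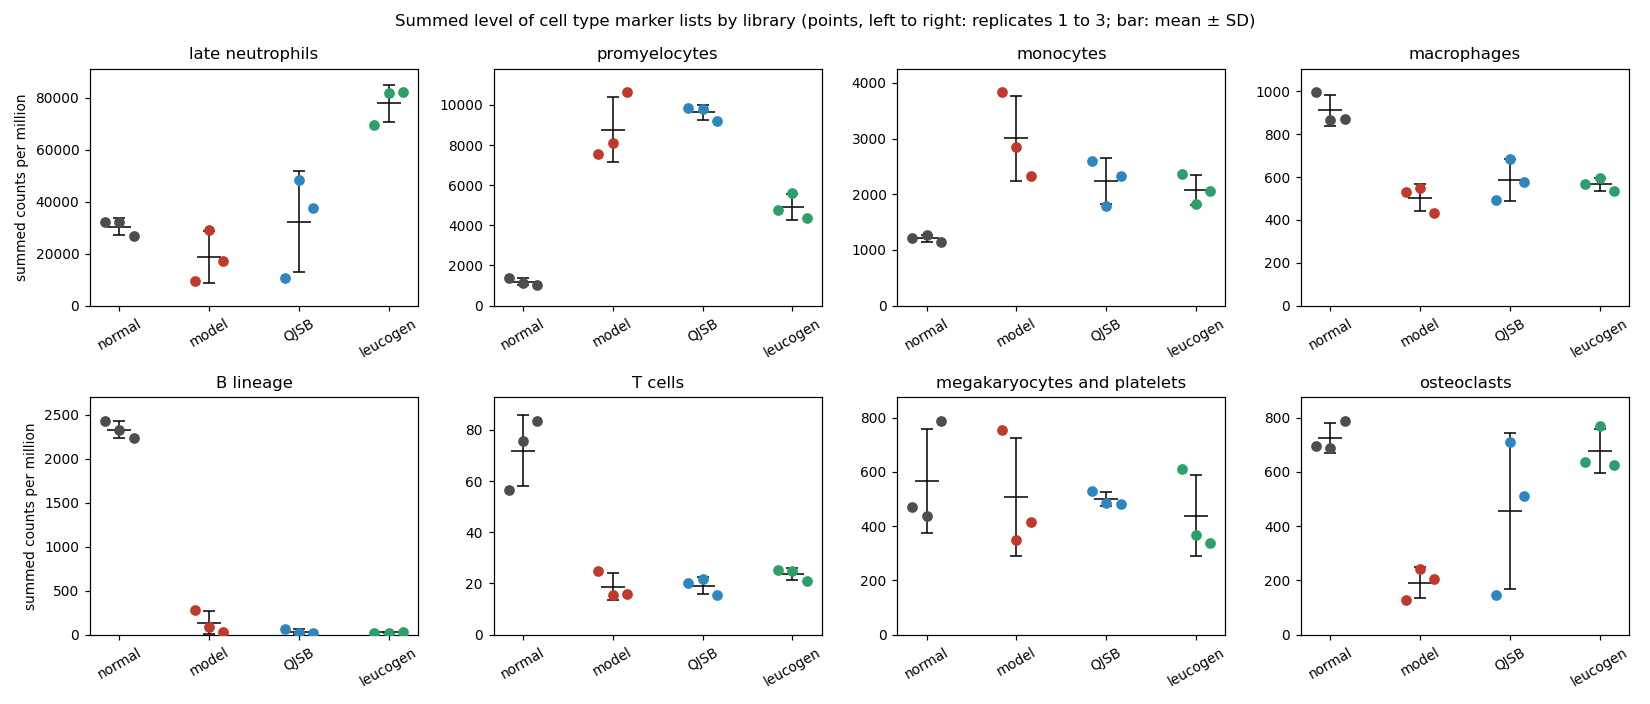
Summed CPM (vertical axes, linear from 0) of 8 hand-written cell type marker lists in the 4 groups (horizontal axes). Points are single libraries and bars are means ± SD of 3 mice. Late neutrophil genes sit between 69487 and 82051 CPM in leucogen mice, above the 9 other libraries, and B lineage genes reach 2234 CPM or more in normal mice and stay under 283 CPM in all others.

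Per length of transcript, in FPKM (fragments scaled to transcript length and library total), the levels of the members in normal mice spanned from a mean of 0.21 for Itgae to one of 78.4 for Itgb1. Itgb1 (78.4 ± 5.51 FPKM), Itgb2 (73.1 ± 1.59), Itga4 (70.6 ± 1.58) and Itgam (58.6 ± 0.51) made up the upper group. Itgb3 followed at 25.8 ± 9.09 FPKM, Itgb7 at 13.4 ± 1.39, Itgal at 12.965 ± 0.21, Itga6 at 8.01 ± 2.10 and Itgax at 3.07 ± 0.09. In leucogen mice the upper 2 were Itgam (109 ± 8.14 FPKM) and Itgb2 (102 ± 17.3), with Itgb1 at 69.0 ± 3.04 and Itga4 at 31.2 ± 1.73.

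Groups were compared pairwise with edgeR's quasi-likelihood test, and a gene was called when it was over 1.5-fold higher or lower and its Benjamini-Hochberg adjusted p over all genes tested was under 0.05. The rows named Itgam count separately here. Compared with the normal group, the model group had 1 member higher (Itgb7) and 2 lower (Itgax and Itga4) among 10 tested, where 16.1% of all genes were called higher and 19.0% lower. The libraries of these groups did not overlap for 4 of the 10 members, against 55.4% of all genes. Scaling by total counts in place of TMM moved the median of all genes in this comparison by 0.12 on the log2 scale and turned the split of all calls from 2368 higher and 2803 lower to 3024 higher and 2346 lower, with the same 3 members called. The median log2 fold change was -0.06 over the 10 members tested and 0.02 over all genes.

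QJSB against model gave 0 called members of 10, as it gave 0 called genes in either direction (0% higher and 0% lower), with 723 genes at an unadjusted P under 0.05. DESeq2 called 8 genes and edgeR with the replicate block 18, none of them a member. No member had an unadjusted P under 0.05 in edgeR, 3 did in DESeq2 (Itgam, Gm49368 and Itgb2), and neither tool called one at an adjusted p under 0.05. At the cutoff of the study, which uses the unadjusted P, edgeR called 0 members, where 1.68% of all genes were higher and 1.40% lower. The study applied this cutoff with DESeq2 and reported Itgam as raised by QJSB. Run here, DESeq2 put 3 members past it, the same as above. It gave 907 of 21762 genes an unadjusted P under 0.05. In their deviations from the group means, QJSB replicate 1 correlated best with model replicate 1 (r = 0.453). QJSB replicates 2 and 3 correlated best with model replicates 3 and 2 (r = 0.136 and 0.103 with their own numbers). The replicate numbers thus did not pair all these libraries. Once a block for that number was in the fit, 3 members passed that unadjusted cutoff, all higher in QJSB mice. They were Itgam (log2 fold change 0.78, adjusted p = 0.213), Itgb2 (0.73, adjusted p = 0.312) and Gm49368 (0.64, adjusted p = 0.459), all by edgeR. The libraries did not overlap for 1 of 10 members (Itgb1), against 9.84% of all genes. The median was 0.25 over the members and -0.02 over all genes.

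Leucogen against model gave 2 members higher (Itgam and Itgb2) and 1 lower (Itgb7) of 10, where 11.6% of all genes were higher and 11.5% lower, and 4 members against 45.9% of all genes did not overlap. Here total counts in place of TMM moved the median of all genes by -0.17 and turned the split of calls from 1640 higher and 1635 lower to 1150 higher and 2655 lower, and Itgb2 was no longer called. Against the normal group, QJSB mice had 2 members higher (Itgb7 and Itga6) and 3 lower (Itgax, Itga4 and Itgae) of 11, where 18.0% of all genes were higher and 19.9% lower. Of these, Itgae passed the filter on low counts only through its normal libraries. The QJSB and normal libraries did not overlap for 7 of 11 members, against 58.4% of all genes. Leucogen mice had 1 member higher (Itgam) and 3 lower (Itgax, Itga4 and Itgb7) than normal mice of 10 tested, where 17.8% of all genes were higher and 19.8% lower, and 6 members against 61.8% of all genes did not overlap. In QJSB against leucogen 1 member was higher (Itgb7) and 0 were lower, where 12.9% and 11.7% of all genes were, and 4 of 10 against 48.9% of all genes did not overlap. The model, QJSB and leucogen libraries each enter several of these comparisons, so the counts are not independent of each other.

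**Figure D2:**
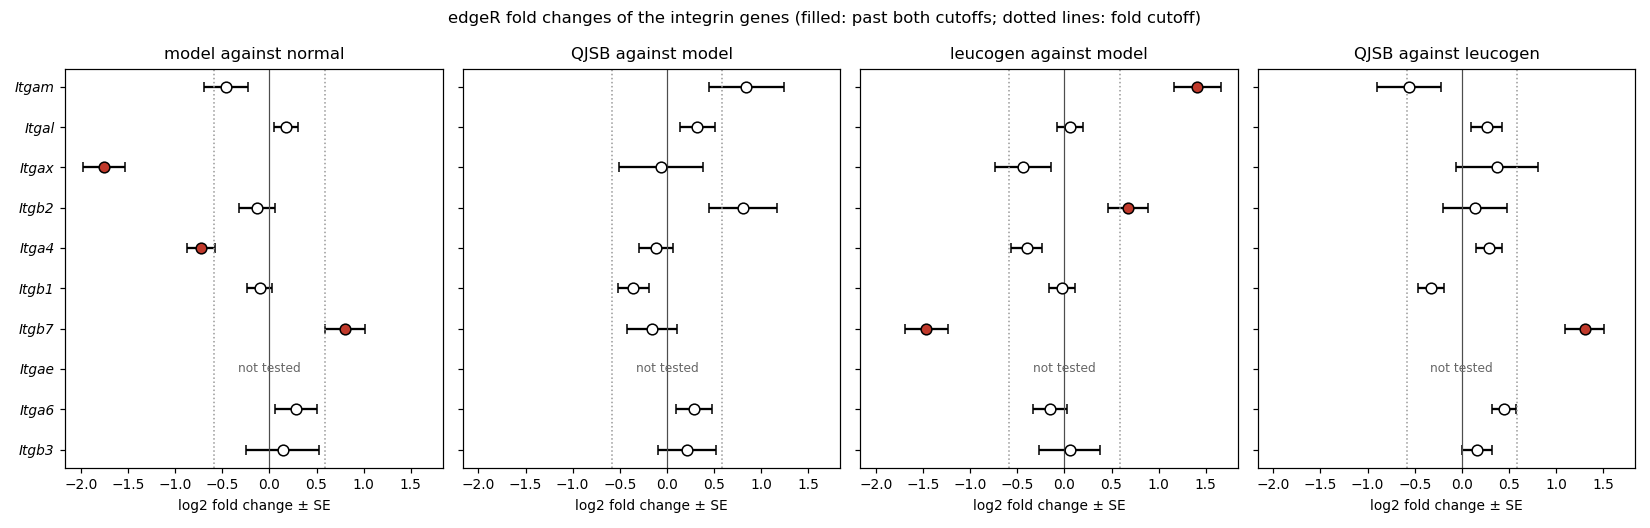
Log2 fold change ± SE from edgeR (horizontal axis) of the 10 integrin genes (rows) in 4 comparisons (panels), with filled points past both cutoffs and dotted lines at the fold cutoff. Itgax and Itga4 are filled below 0 and Itgb7 above 0 in model against normal, no point is filled in QJSB against model, and Itgb7 is filled at -1.46 in leucogen against model and at 1.30 in QJSB against leucogen. Itgae was too low to be tested in these comparisons.

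Itgam, the α subunit of Mac-1, was highest in the leucogen group. Its level was 433, 432 and 418 CPM in normal mice, 194, 356 and 389.55 CPM in model mice, 277, 749 and 682 CPM in QJSB mice, and 729, 905 and 829 CPM in leucogen mice. All 3 model libraries lay below the normal ones, which were close together, and QJSB replicate 1 fell among the model libraries while the other 2 QJSB libraries lay above every normal one. Leucogen and model libraries did not overlap, and Itgam rose 2.66-fold in leucogen mice (log2 fold change 1.41 ± 0.25 SE, adjusted p = 0.00610, edgeR). It was also 1.94-fold higher than in normal mice (0.96 ± 0.09, adjusted p = 1.74e-05, edgeR). Model against normal gave -0.46 ± 0.24 (adjusted p = 0.152) and did not pass.

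QJSB against model gave a log2 fold change of 0.84 ± 0.40 for Itgam (unadjusted P = 0.0661, adjusted p = 0.767, edgeR), which did not pass. Without QJSB replicate 1 it was 1.17 (adjusted p = 0.162), and without model replicate 1 it was 0.59 (adjusted p = 0.984). QJSB against leucogen gave -0.56 ± 0.34 (adjusted p = 0.248). The order of the means was model, normal, QJSB and leucogen, and of the neighbours in it model and normal did not overlap but did not differ by the test, while QJSB overlapped both of its neighbours.

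The row Gm49368 stood at 123 ± 9.94 CPM in normal, 122 ± 39.2 in model, 221 ± 166 in QJSB and 159.9 ± 58.8 in leucogen mice. QJSB replicate 2 was alone at 413 CPM, with the 11 other libraries between 85.3 and 214 CPM. The row took 10.5% to 37.8% of the counts of the Itgam pair, so the share was not the same in every library. It was called in none of the 6 comparisons, but without leucogen replicate 3 it was called higher in leucogen against normal (log2 fold change 0.64, adjusted p = 0.00366, edgeR). With both rows summed, the log2 fold change of Itgam was 1.19 in leucogen against model (adjusted p = 0.00567, edgeR) and 0.85 in leucogen against normal (adjusted p = 5.44e-05), so both calls were kept.

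Itgb2, the β chain shared by these receptors, was higher in leucogen than in model mice, though by less than Itgam. Its level was 346, 340.3 and 349 CPM in normal mice, 226, 329 and 396 CPM in model mice, 294, 803 and 592 CPM in QJSB mice, and 436, 611 and 452 CPM in leucogen mice. The leucogen libraries lay above all normal and all model libraries. QJSB replicate 1 lay below the normal libraries and within the model range, and the other QJSB libraries lay above both groups. Itgb2 rose 1.60-fold in leucogen against model (0.67 ± 0.22, adjusted p = 0.0461, edgeR), a call lost with total counts (adjusted p = 0.0710), on FPKM (adjusted p = 0.0993) and in one fit of all 12 libraries (adjusted p = 0.115). It was also lost on leaving out any of the 6 libraries except model replicate 3, with adjusted p between 0.0763 and 0.150. Leucogen against normal gave 0.55 ± 0.12 (adjusted p = 0.00320), under the fold cutoff, and was called without leucogen replicate 1 (0.64, adjusted p = 0.00202) or leucogen replicate 3 (0.60, adjusted p = 0.00787).

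In QJSB against model, Itgb2 gave 0.81 ± 0.36 (unadjusted P = 0.0533, adjusted p = 0.767, edgeR). Without QJSB replicate 1 the value was 1.12 (adjusted p = 0.156). Against normal mice, leaving out QJSB replicate 1 added calls for Itgb2 (1.01, adjusted p = 0.000283), Itgam (0.73, adjusted p = 0.000206) and Itgal (0.67, adjusted p = 0.000391), none of which passed with all 3 libraries. Late neutrophil markers moved with Itgam and Itgb2 in leucogen against model, where 11 of 15 were higher and 0 lower. Model replicate 1 and QJSB replicate 1, the lowest in the markers, were also the lowest of their groups in both genes. Between the drug groups Itgb2 did not follow them, at 563 ± 256 CPM in QJSB and 500 ± 96.7 CPM in leucogen mice. There the summed markers were 10749 to 48476 CPM and 69487 to 82051 CPM. Their part in these results was not tested.

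Itgal, the α subunit of LFA-1, varied least among the α partners of β2. It stood at 124 ± 2.74 CPM in normal, 141 ± 16.5 in model, 178 ± 35.0 in QJSB and 145 ± 10.3 in leucogen mice. The QJSB libraries (140.07, 209 and 186 CPM) and the leucogen libraries (142, 157 and 137 CPM) all lay above the highest normal library at 127 CPM, while the model libraries reached from 125 to 158 CPM and overlapped every group. It was called in none of the 6 comparisons, and its adjusted p was under 0.05 with a fold change below the cutoff in QJSB against normal (0.52 ± 0.15, adjusted p = 0.0254, edgeR) and leucogen against normal (0.25 ± 0.08, adjusted p = 0.0295).

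Itgax, the α subunit known as the dendritic cell marker CD11c, was lower in every cyclophosphamide group than in the normal group. It had 17.2, 16.2 and 16.1 CPM in normal mice, 6.35, 3.75 and 4.55 in model mice, 8.15, 2.62 and 3.43 in QJSB mice, and 4.28, 3.12 and 3.32 in leucogen mice. The highest library of a cyclophosphamide group stood at 8.15 CPM, so none overlapped the normal group, while the 3 cyclophosphamide groups overlapped one another. The level was 3.38-fold lower in model than in normal mice (log2 fold change -1.76 ± 0.22, adjusted p = 0.000484, edgeR), 3.47-fold lower in QJSB (-1.79 ± 0.40, adjusted p = 0.00851) and 4.54-fold lower in leucogen mice (-2.18 ± 0.18). These calls held under each alternative tried. QJSB against model gave -0.06 ± 0.45, leucogen against model -0.44 ± 0.30 and QJSB against leucogen 0.37 ± 0.43, none of which passed.

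Itgam and Itgax are neighbours with 11055 bases between their annotated ends, and in leucogen against normal Itgam rose while Itgax fell. Of 9 dendritic cell genes tested, a list that holds Itgax itself, 5 were lower in model than in normal mice and 1 was higher, and of 14 macrophage genes 10 were lower and 1 higher. The summed macrophage markers were 867 to 995 CPM in normal and 432 to 686 CPM in the cyclophosphamide groups, which do not overlap. The summed dendritic cell markers were 106 to 139 CPM in normal and 109.5 to 226 CPM in model mice, which do overlap. The part of these cells in the level of Itgax was not tested.

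**Figure D3:**
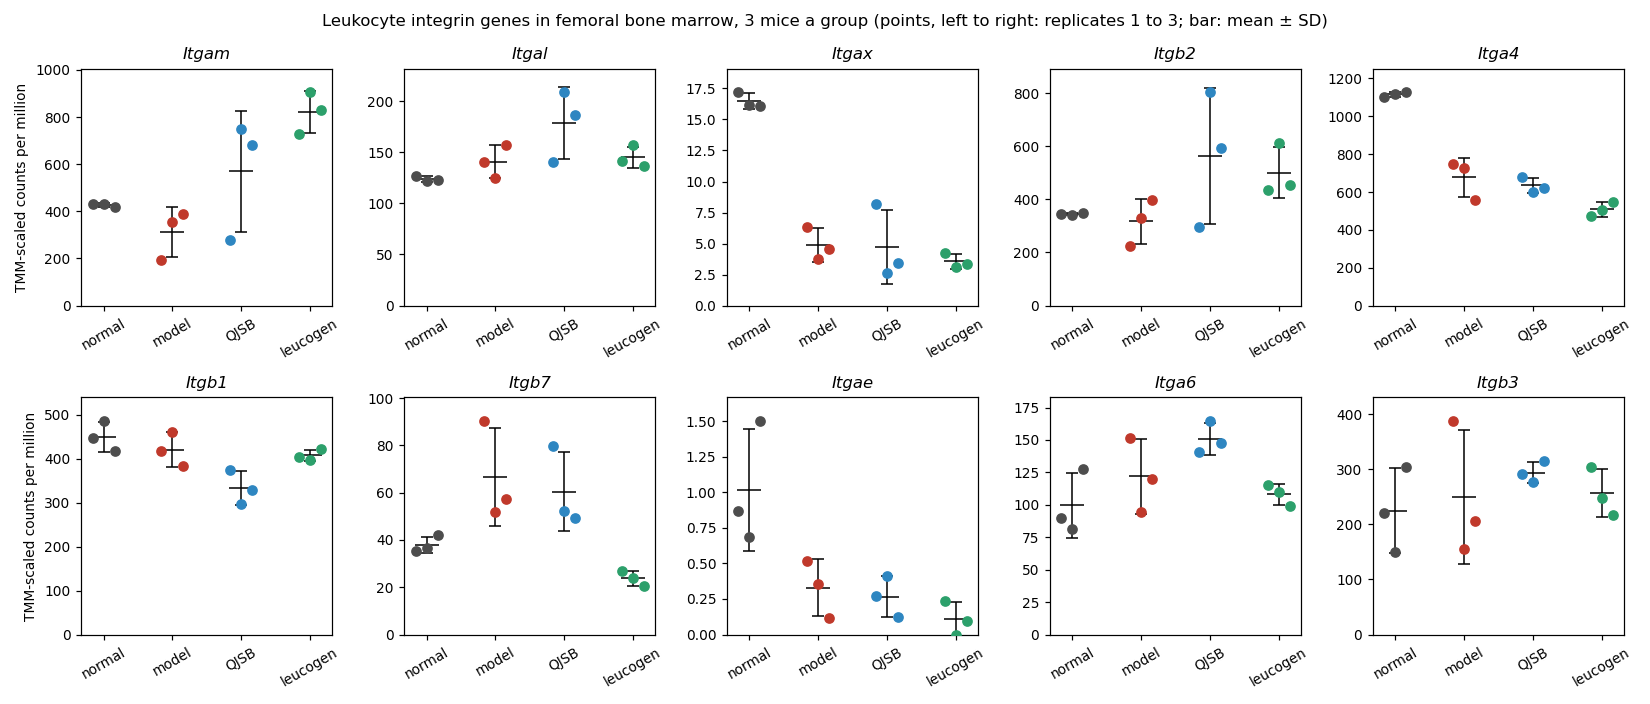
TMM-scaled CPM (vertical axes, linear from 0) of the 10 integrin genes in the 4 groups (horizontal axes), with 1 point per mouse in the order of the replicate numbers and bars for mean ± SD. All normal libraries of Itgax and Itga4 lie above all others, all leucogen libraries of Itgb7 lie below all others, and QJSB replicate 1 lies apart from the other QJSB libraries in Itgam, Itgb2 and Itgb7.

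Per length of transcript, Itgam was the main α partner of β2 in every library. Of the summed FPKM of Itgam, Itgal and Itgax, Itgam made up 78.2%, 78.9% and 78.4% in normal mice, 62.6%, 78.0% and 75.5% in model mice, 70.1%, 82.1% and 82.3% in QJSB mice, and 86.5%, 88.0% and 88.4% in leucogen mice. The leucogen libraries lay above all others, the model libraries lay below the normal ones, and the QJSB libraries lay on both sides of the normal ones. With Gm49368 counted with Itgam, the share was 83.2% to 83.9% in normal mice, 75.3%, 85.2% and 79.98% in model mice, 78.9%, 88.9% and 85.4% in QJSB mice, and 89.4% to 90.6% in leucogen mice. The leucogen libraries were again the highest, but model replicate 2 then lay above every normal library. With Itgam alone, the share was 15.6 points higher in leucogen than in model mice and 9.08 points higher than in normal mice, each with an exact two-sided permutation p = 0.1, the smallest that 3 against 3 libraries allow (adjusted over the 6 comparisons, 0.15). With Gm49368 counted in, these differences were 9.75 and 6.37 points. Model against normal gave -6.51 points, -1.78 points without model replicate 1 and -3.38 points with Gm49368 counted in (exact permutation p = 0.4).

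QJSB and model mice differed by 6.15 points in the share of Itgam alone (exact permutation p = 0.5). The difference was 1.43 points without model replicate 1 and 10.2 points without QJSB replicate 1, the lowest libraries of their groups. QJSB against leucogen gave -9.44 points, and -5.41 points without QJSB replicate 1. Itgal took 17.4% ± 0.29 of the sum in normal mice, 26.3% ± 7.35 in model, 20.6% ± 5.63 in QJSB and 11.9% ± 0.87 in leucogen mice. Itgax took 4.11% ± 0.11 in normal mice and means between 0.53% and 1.70% in the other groups. The sum of the 3 α subunits was 74.6 ± 0.49 FPKM in normal, 62.7 ± 12.7 in model, 96.2 ± 32.1 in QJSB and 124 ± 8.37 in leucogen mice.

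The FPKM of Itgb2 over that sum was 0.98 ± 0.03 in normal, 1.14 ± 0.04 in model, 1.21 ± 0.14 in QJSB and 0.82 ± 0.09 in leucogen mice. The model and QJSB libraries lay between 1.10 and 1.36 and above all normal libraries, and the leucogen libraries lay between 0.75 and 0.92 and below them. Gm49368 was left out of this sum, at mean FPKM of 22.9 in normal, 24.8 in model, 40.3 in QJSB and 29.0 in leucogen mice. With that row added to the sum, the model libraries no longer all lay above the normal ones. The ratio was lowest in the group in which Itgam was highest. Itgam made up 86.5% to 88.4% of the sum there, so a high Itgam by itself lowers the ratio. Itgb2 alone was higher in leucogen than in model mice. These ratios are given without a test.

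**Figure D4:**
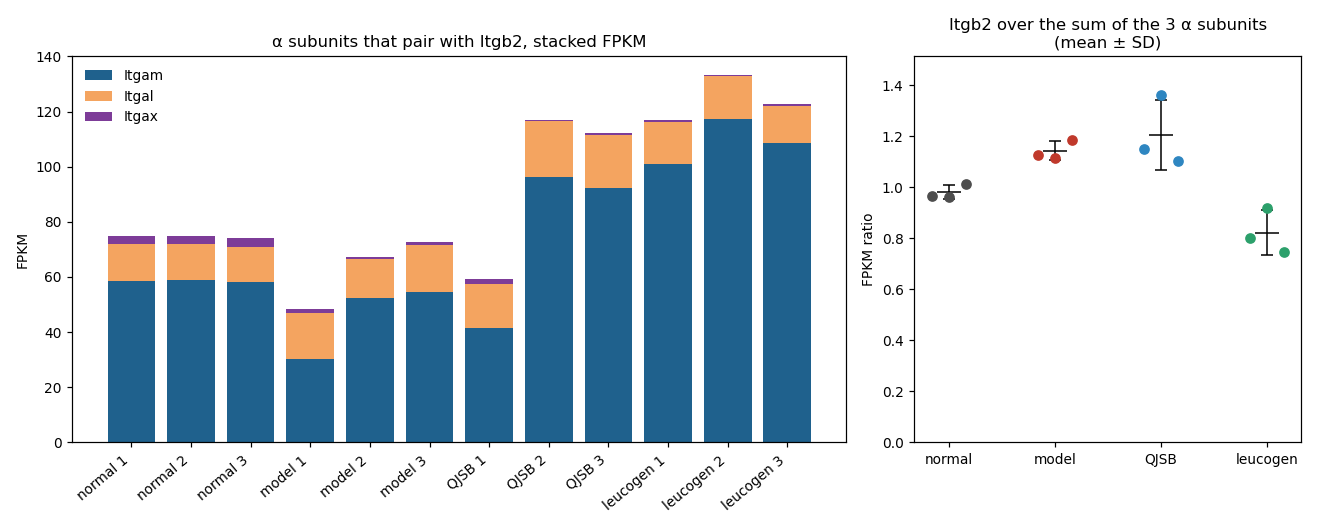
Left, FPKM of Itgam, Itgal and Itgax stacked for each of the 12 libraries (vertical axis from 0). Right, the FPKM of Itgb2 divided by that sum in each group, with 1 point per library and bars for mean ± SD. The stacks reach 116.83 to 133.34 FPKM in leucogen mice, where the ratio is 0.75 to 0.92, and 48.3 to 72.5 FPKM in model mice, where the ratio is 1.12 to 1.19.

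Itga4 (ENSMUSG00000027009, chr2:79255426-79333123), the α chain of VLA-4, was lower in every cyclophosphamide group than in the normal group. Its level was 1103, 1116 and 1127 CPM in normal mice, 747, 728.50 and 558 CPM in model mice, 679.90, 603 and 622 CPM in QJSB mice, and 471, 504 and 549.52 CPM in leucogen mice. All 9 libraries from cyclophosphamide mice lay below all normal libraries, and all leucogen libraries lay below all model and QJSB libraries. Itga4 was 1.66-fold lower in model than in normal mice (log2 fold change -0.73 ± 0.15, adjusted p = 0.00514, edgeR), 1.76-fold lower in QJSB (-0.82 ± 0.11, adjusted p = 0.00108) and 2.17-fold lower in leucogen mice (-1.12 ± 0.09). These calls held under each alternative tried.

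Between the cyclophosphamide groups no difference in Itga4 passed. Leucogen against model gave -0.40 ± 0.16 (adjusted p = 0.0987, edgeR), QJSB against model -0.11 ± 0.18 (adjusted p = 0.895) and QJSB against leucogen 0.28 ± 0.14 (adjusted p = 0.156). Erythroid genes, of which all 13 tested were lower in each of the 3 cyclophosphamide groups than in normal mice, and B lineage genes moved in the same direction as Itga4, and precursors of both kinds are known to carry VLA-4. The summed erythroid markers were 18603 to 22268 CPM in normal mice and 348 to 2144 CPM in the other 9 libraries. Promyelocyte genes moved the other way, with 7 of 9 higher in model than in normal mice and 0 lower. Of 12 stem and progenitor cell genes, 6 were higher and 1 lower there. Of all genes, 16.1% were higher and 19.0% lower. The part of these cells in the level of Itga4 was not tested.

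Itgb7 (ENSMUSG00000001281, chr15:102215995-102231935), which can replace β1 as the partner of α4, went the other way in the model group. It stood at 35.5, 36.5 and 41.9 CPM in normal mice, 90.3, 52.0 and 57.3 CPM in model mice, 79.6, 52.3 and 49.3 CPM in QJSB mice, and 27.01, 23.9 and 20.6 CPM in leucogen mice. The model and QJSB libraries lay above all normal libraries and overlapped each other, and the leucogen libraries lay below all of them.

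Itgb7 was 1.74-fold higher in model than in normal mice (0.80 ± 0.21, adjusted p = 0.0170, edgeR). This call was lost without normal replicate 1 (adjusted p = 0.0652), without normal replicate 2 (adjusted p = 0.0609) and without model replicate 1, the highest library, where the log2 fold change fell to 0.52. It was 2.76-fold lower in leucogen than in model mice (-1.46 ± 0.23, adjusted p = 0.00385) and 2.47-fold higher in QJSB than in leucogen mice (1.30 ± 0.21, adjusted p = 0.00437), calls that held under each alternative tried. QJSB against model gave -0.16 ± 0.27 (adjusted p = 0.901) and did not pass.

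Against normal mice, Itgb7 gave 0.67 ± 0.20 in the QJSB group (adjusted p = 0.0291, edgeR) and -0.65 ± 0.13 in the leucogen group (adjusted p = 0.00213). The first call was lost under 6 of the alternatives, among them leaving out any 1 normal library (adjusted p from 0.0553 to 0.104) and leaving out QJSB replicate 1, where the log2 fold change was 0.41. The second fell just under the fold cutoff without leucogen replicate 3 (-0.58) and without normal replicate 3 (-0.57). Monocyte genes moved with Itgb7 in the model group, with 6 of 10 higher than in normal mice and 0 lower, and summed levels of 1146 to 1268 CPM in normal and 2323 to 3833 CPM in model mice. In leucogen mice the summed monocyte markers were 1825 to 2360.0 CPM, above normal, while Itgb7 lay below normal. Their part was not tested.

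Itgb1 (ENSMUSG00000025809, chr8:128685654-128733200), the common β chain of many cell types, was steady by comparison. It stood at 449 ± 34.2 CPM in normal, 420 ± 39.3 in model, 333 ± 38.8 in QJSB and 407 ± 12.6 in leucogen mice. The QJSB libraries (374, 297 and 328 CPM) lay below every library of the other groups, whose lowest was at 383 CPM. It was called in none of the 6 comparisons, and QJSB against normal gave -0.44 ± 0.13 (adjusted p = 0.0284, edgeR), under the fold cutoff. QJSB against model gave -0.36 ± 0.17 (adjusted p = 0.767).

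Set against each other per length, the partners of α4 shifted between groups. The FPKM of Itgb1 over that of Itgb7 was 5.89 ± 0.87 in normal, 3.32 ± 1.05 in model, 2.80 ± 0.48 in QJSB and 8.55 ± 1.40 in leucogen mice. The leucogen libraries (7.37 to 10.1) lay above all normal libraries (4.91 to 6.56), and the model and QJSB libraries (2.28 to 4.38) lay below them. The FPKM of Itga4 over the sum of both β chains was 0.77 ± 0.05 in normal mice and 0.44 ± 0.03, 0.51 ± 0.04 and 0.40 ± 0.03 in model, QJSB and leucogen mice. Itga4 was thus below that sum in every library, and lower relative to it in all 9 libraries from cyclophosphamide mice. Against Itgb7 alone, Itga4 was the higher in every library, with ratios from 1.48 to 5.56. These ratios are given without a test.

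**Figure D5:**
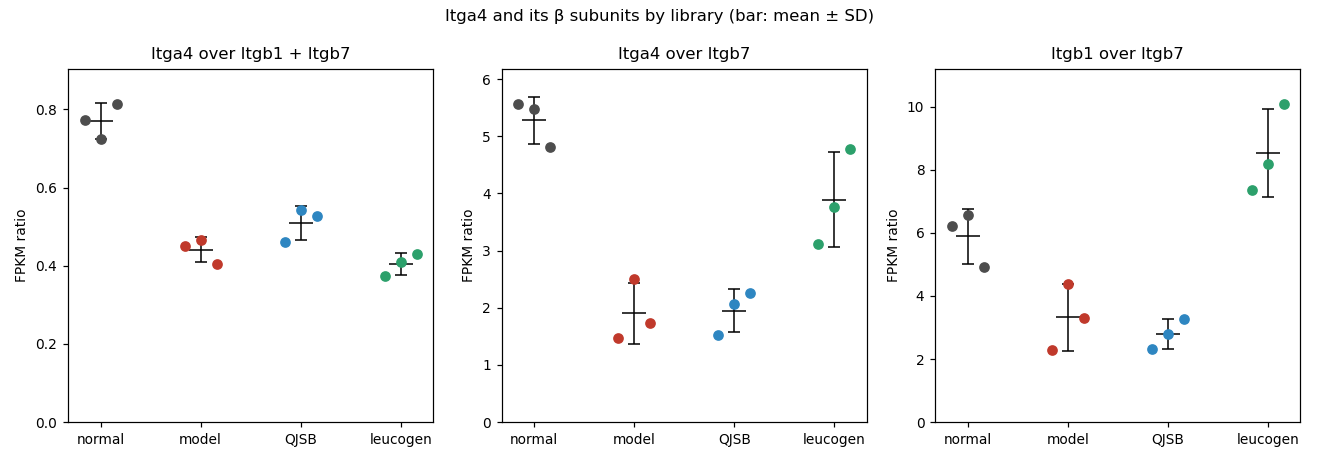
FPKM ratios (vertical axes, linear from 0) of Itga4 over Itgb1 plus Itgb7, of Itga4 over Itgb7 and of Itgb1 over Itgb7 in the 4 groups, with 1 point per library and bars for mean ± SD. In the left panel all normal libraries lie at 0.72 or above and all others at 0.54 or below. In the right panel the leucogen libraries lie at 7.37 or above and the model and QJSB libraries at 4.38 or below.

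Itgae (ENSMUSG00000005947, chr11:73090583-73147446), the partner of β7 on lymphocytes and dendritic cells of epithelia, was near the limit of detection. It had 12, 10 and 22 counts in the normal libraries, 9, 5 and 2 in the model, 5, 7 and 2 in the QJSB and 3, 0 and 1 in the leucogen libraries. Every normal library lay above every other. With all 6 libraries in the fit, Itgae passed the filter on low counts only in QJSB against normal, where it was lower (log2 fold change -1.90 ± 0.55, adjusted p = 0.0244, edgeR). Its counts reached 10 only in the normal libraries, so it passed through the group in which it was high. The direction of this call is thus not independent of the filter. That call was lost without normal replicate 1 (adjusted p = 0.0580), normal replicate 3 (adjusted p = 0.0991) or QJSB replicate 3 (adjusted p = 0.0690), with the replicate block (adjusted p = 0.0707) and on FPKM (adjusted p = 0.0581). In leucogen against normal, Itgae was tested under 7 of the alternatives, among them both fits without a filter on low counts and the one on FPKM, and was called lower in all 7 (adjusted p from 0.00379 to 0.0257). In model against normal it was tested under 9 and called lower only without model replicate 1 (adjusted p = 0.0377, edgeR). In both comparisons the fits with a library left out passed the filter in the same way, through the normal libraries. Of 11 T cell genes tested, 10 were lower in model than in normal mice and 0 higher, and their part in the level of Itgae was not tested.

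Itga6 (ENSMUSG00000027111, chr2:71745616-71858416), a laminin receptor chain of stem and progenitor cells and platelets, stood at 99.7 ± 24.9 CPM in normal, 122 ± 28.9 in model, 151 ± 12.3 in QJSB and 108 ± 8.16 in leucogen mice. The QJSB libraries (140.45, 165 and 148 CPM) lay above all normal (81.0 to 128 CPM) and all leucogen libraries (99.2 to 115 CPM), and the model libraries (94.2 to 152 CPM) overlapped all groups. QJSB against normal gave 0.59 ± 0.18 (adjusted p = 0.0301, edgeR), just past the fold cutoff. DESeq2 (0.58), DESeq2 size factors in edgeR (0.57) and the fit of all 12 libraries (0.58) put it under that cutoff, and leaving out normal replicate 1 or 2 or QJSB replicate 2 or 3 raised the adjusted p to between 0.0639 and 0.116. QJSB against leucogen gave 0.45 ± 0.13 (adjusted p = 0.0309), under the fold cutoff.

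Itgb3 (ENSMUSG00000020689, chr11:104608000-104670476), the β chain of the platelet fibrinogen receptor, varied more within groups than between them. It had 221, 149.55 and 304 CPM in normal mice, 388, 156 and 205 CPM in model mice, 291, 276 and 315 CPM in QJSB mice, and 304, 249 and 218 CPM in leucogen mice. All 4 groups overlapped, the log2 fold changes of the 6 comparisons lay between 0.06 and 0.38, and none passed. Without normal replicate 3, the highest normal library, QJSB against normal was called (0.66, adjusted p = 0.0418, edgeR). The libraries that were highest in Itgb3 within the normal and model groups (normal replicate 3 and model replicate 1) were also the highest of their groups in the summed platelet markers, at 787 and 756 CPM. So was leucogen replicate 1, at 610 CPM. In the QJSB group the match failed, as replicate 3 was highest in Itgb3 and lowest in these markers, at 483 CPM. Without model replicate 1, Itgb3 gave 0.68 in QJSB against model (unadjusted P = 0.0103, adjusted p = 0.984, edgeR).

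The other integrin subunits were read from a list of 17, of which 12 were tested in model against normal, with 2 called higher and 4 lower. Of all genes, 16.1% were called higher and 19.0% lower in that comparison. Itgad, the fourth α partner of β2, carried by splenic macrophages, was lower in every cyclophosphamide group than in normal mice, as Itgax was. It had 13.3 ± 2.03 CPM in normal, 4.17 ± 1.42 in model, 3.37 ± 1.56 in QJSB and 1.89 ± 0.34 in leucogen mice, and was called lower in all 3 cyclophosphamide groups (log2 fold change -1.68, -1.99 and -2.78 by edgeR). It was also called lower in leucogen than in model mice (-1.12, adjusted p = 0.0394, edgeR), where Itgax did not pass. Itga9, a partner of β1, was also lower in model mice (-1.75, adjusted p = 0.000477), at 15.7 ± 0.07 CPM in normal and 4.71 ± 1.18 in model mice. Itga8 fell by 2.47 on the log2 scale (adjusted p = 0.0141).

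Itgb2l, a β2-like chain of maturing neutrophils, moved as Itgam did. It stood at 77.8 ± 5.35 CPM in normal, 48.2 ± 33.8 in model, 94.4 ± 67.1 in QJSB and 233 ± 7.11 in leucogen mice, and was called higher in leucogen than in model mice (2.29 ± 0.55, adjusted p = 0.0296, edgeR) and than in normal mice (1.60 ± 0.09). Itgav, the partner of β3 outside platelets, was at 80.1 ± 26.6 CPM in normal, 39.7 ± 1.26 in model, 64.0 ± 20.1 in QJSB and 101 ± 6.67 in leucogen mice. It was lower in model than in normal mice (-1.02 ± 0.24, adjusted p = 0.00976) and higher in leucogen than in model mice (1.37 ± 0.13, adjusted p = 0.00158). Itga2b, the platelet partner of β3, gave means between 53.4 and 79.5 CPM and passed in no comparison. Of 12 other subunits tested, leucogen against model called 2 higher and 2 lower, where 11.6% of all genes were higher and 11.5% lower. QJSB against model called 0 of 13, and 0 of all genes.

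Integrins bind their ligands only once adaptor proteins have acted on their inner tails, and 17 of 18 such adaptor genes were tested. In model against normal 2 were higher and 2 lower, where 16.1% of all genes were higher and 19.0% lower. Fermt3, the kindlin of blood cells, rose from 139.6 ± 10.4 to 269 ± 66.1 CPM (log2 fold change 0.93, adjusted p = 0.00359, edgeR), and Skap1, an adaptor of T cells, fell from 7.71 ± 0.85 to 0.83 ± 0.56 CPM (-3.20, adjusted p = 0.000694). In leucogen against model 5 were higher and 1 lower, where 11.6% of all genes were higher and 11.5% lower. Skap2, the myeloid counterpart of Skap1, rose from 383 ± 76.0 to 765 ± 26.9 CPM (1.02, adjusted p = 0.00526), and Rap1a, the small GTPase that calls talin to the tails, rose as well (0.76, adjusted p = 0.0130). In QJSB against leucogen 3 adaptors were higher and 3 lower, among them Fermt3 (0.90) and Skap2 (-1.11). Of all genes, 12.9% were higher and 11.7% lower there. QJSB against model called 0 of 17, and 0 of all genes.

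Of 27 ligand genes, 18 were tested in model against normal, with 6 higher and 3 lower. Of all genes, 16.1% were higher and 19.0% lower there. Cyr61, a matrix protein bound by several integrins, rose by 2.53 on the log2 scale (adjusted p = 0.00153, edgeR), and Icam4, a red cell ligand, fell from 10.5 ± 0.67 to 0.47 ± 0.20 CPM. Leucogen against model called 0 higher and 4 lower of 16, where 11.6% of all genes were higher and 11.5% lower. Among the lower was Fn1, which encodes fibronectin, a ligand of VLA-4 (-1.37, adjusted p = 0.0375). It was at 1956 ± 1142 CPM in model and 748 ± 133 CPM in leucogen mice. Fn1 was 1.57 higher on the log2 scale in QJSB than in leucogen mice (adjusted p = 0.00285). Of 17 ligands tested there, 5 were higher and 0 lower, where 12.9% of all genes were higher and 11.7% lower. QJSB against model called 0 of 16, and 0 of all genes.

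Downstream of the receptors, 25 of 26 signaling and cytoskeletal genes were tested, with 4 higher and 3 lower in model against normal. Of all genes, 16.1% were higher and 19.0% lower in that comparison. Syk, the kinase that β2 integrins engage, fell from 979 ± 18.6 to 456 ± 32.8 CPM (-1.11, adjusted p = 0.000205, edgeR), and Parvg, the parvin of blood cells, rose from 110.5 ± 3.24 to 265 ± 78.8 CPM (1.25, adjusted p = 0.00128). Leucogen against model called 6 higher and 0 lower, where 11.6% of all genes were higher and 11.5% lower. Fgr, a Src family kinase of myeloid cells, rose from 121 ± 27.3 to 286 ± 2.82 CPM (1.26, adjusted p = 0.00282) and Tyrobp, the adaptor that couples receptors to Syk, rose by 0.97 (adjusted p = 0.0119). QJSB against model called 0 of 25, and 0 of all genes. QJSB against leucogen called 2 higher and 2 lower, where 12.9% of all genes were higher and 11.7% lower.

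The genes most like each member were sought among 9929 named genes with a mean of at least 5 CPM, as those with the smallest root mean square difference in centred log2 CPM over the 12 libraries. For Itgam these were Mocos (0.08), Agap1 (0.14) and Pfkfb4 (0.15), beside a spread of Itgam itself of 0.66. For Itgb2 they were Anxa11 (0.10), Cnn2 (0.12) and Actn1 (0.12), for Itgal Hsdl1, Rmnd5b and Agap2 (0.07 to 0.08), and for Itgax Slc29a1, Mical3 and Sdc1 (0.22 to 0.25). For Itga4 they were Cep97, Cbx5 and Alkbh8 (0.12 to 0.14), for Itgb1 Smarcad1, Ranbp2 and Hdac2 (0.05 to 0.07), and for Itgb7 Mrps27, Cd68 and Tspan3 (0.16 to 0.18). For Itga6 they were Hps4, Epas1 and Pttg1ip (0.13 to 0.14), for Itgae Pitpnm2, Lax1 and Atp2b4 (0.35 to 0.39), and for Itgb3 Kalrn, Cald1 and Itga6 (0.19 to 0.23). Among the members themselves the closest pairs were Itgal with Itga6 (0.23), Itga6 with Itgb3 (0.23) and Itgam with Itgb2 (0.33). Genes that change little lie near each other by this measure. The spread of Itgal was 0.23, of Itga6 0.31 and of Itgb3 0.40, so the first distance is no smaller than the spread of Itgal. The spreads of Itgam (0.66) and Itgb2 (0.49) were larger. All points share the same 12 libraries and their depth, so these distances are descriptions.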

How the data were processed

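RNA of total femoral marrow cells was sequenced by the authors from 12 mice after ribosomal RNA removal, as strand-specific libraries. Reads were filtered with Seqtk and mapped with Hisat2 2.0.4 to GRCm38.p4, allowing 2 mismatches. The read counter, its use of strand and the annotation version are not given in the sources used here. The deposited counts are whole numbers of reads per gene without normalization, for 34745 genes. The FPKM values were computed by the authors from fragments, transcript length and total fragments. Column headings were read as groups by their meaning and, for QJSB, by elimination. The study lists for each gene a mean over both groups of a comparison. This reading put these means within 1% for 300 of 300 genes in each of 3 comparisons. Any other pair of groups did so for at most 10, so the assignment rests in part on values. Such a mean does not by itself tell the 2 groups of a comparison apart, but only the model group is in all 3. 0 sample columns were left unused.

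Counts were tested with edgeR 4.0.16 (TMM, filterByExpr, robust quasi-likelihood fit, R 4.3.3) on the 6 libraries of each of 6 comparisons, with adjusted p over all genes. The smallest library held 11172547 counts. P-values of these fits set a difference between groups against the spread between the 3 mice of a group, moderated over all genes. Shares of FPKM were compared by exact permutation tests. As alternatives, DESeq2 1.42.0 was run unfiltered, edgeR was run with DESeq2 size factors, with total counts, unfiltered, on all 12 libraries together and with a replicate block, limma 3.58.1 was run on log2(FPKM + 0.1) where the mean FPKM was 0.1 or more, and libraries were left out singly. Summing both rows named Itgam, counting Gm49368 with Itgam in the share and pairing the share by replicate number were added after seeing the data. The deviations of same-numbered libraries had r = 0.453, 0.136 and 0.103 in QJSB against model, where only replicate 1 correlated best with its own number. In QJSB against leucogen r was 0.174, 0.157 and 0.110, and every replicate correlated best with its own number. In each of the other comparisons some of these correlations were below 0. The labels give only a number. Scripts were tested on simulated counts.

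All members were named in every comparison. From the other lists, at most 3 called genes per comparison with the largest fold change and at least 1 CPM were named, with Itgad, Itgb2l, Itga2b and Itgav. Members and lists were chosen with earlier results of these data known. GENCODE M21 gave the same coordinates for every member row except Itgb7, whose coordinates are those of the deposited table.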

Additional observations from a re-analysis of the deposited data

How the results depend on the processing

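The calls of Itgax and Itga4 against the normal group, of Itgam and Itgb7 in leucogen against model, of Itgam in leucogen against normal and of Itgb7 in QJSB against leucogen kept their direction and side of the cutoff under every alternative run. With 3 mice a group, fold changes near the 1.5-fold cutoff turned on single libraries, and Itgae at 0 to 22 counts is limited by depth. In QJSB against model, 3 members passed the unadjusted cutoff of the study with DESeq2, 1 with total counts, 2 with all 12 libraries in one fit and 3 with the replicate block, against 0 as reported, and leaving out single libraries gave 0 to 2 (2 without QJSB replicate 1, 1 without model replicate 1). In QJSB against normal, 3 members were called with all 12 libraries in one fit, 3 with the replicate block and 3 on FPKM, against 5 as reported. Leaving out single libraries there gave 2 to 7 (7 without QJSB replicate 1, 2 without normal replicate 1, 3 without normal replicate 2 or QJSB replicate 3). In leucogen against normal they gave 3 to 6 against 4 as reported (6 without leucogen replicate 1 or 3). The cause was not tested. The replicate block changed no other call past the adjusted cutoff, and every sample correlated best with its own number only in QJSB against leucogen.

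Over all genes, QJSB against model called 8 with DESeq2, 18 with the replicate block and 3 without QJSB replicate 1, against 0 as reported. The share of Itgam in QJSB against normal was -0.36 points as reported, 0.86 with Gm49368 counted with Itgam and from -2.41 to 3.67 on leaving out single libraries, the highest without QJSB replicate 1.

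Directions turned only for members that were not called. In model against normal, total counts gave 0.11 for Gm49368 and 0.018 for Itgb1, and FPKM gave 0.057 and 0.013. In leucogen against model, total counts gave -0.11 for Itgal and -0.13 for Itgb3, and FPKM gave -0.11 and -0.019. Leaving out single libraries gave log2 fold changes on both sides of 0 in model against normal for Gm49368 (-0.27 to 0.20), Itgb2 (-0.31 to 0.071) and Itgb3 (-0.32 to 0.43), in QJSB against model for Itgax (-0.71 to 0.24), Itgb7 (-0.41 to 0.13) and Itgb3 (-0.031 to 0.69), and in leucogen against model for Itgb1 (-0.071 to 0.078), Itga6 (-0.28 to 0.048) and Itgb3 (-0.15 to 0.54). It did so as well in leucogen against normal for Itgb3 (-0.017 to 0.49) and in QJSB against leucogen for Gm49368 (-0.36 to 0.72), Itgax (-0.28 to 0.68) and Itgb2 (-0.19 to 0.44).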
